A study of Mus musculus with 12 samples.

Results

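The 46 genes described here are interferon-stimulated genes, genes whose transcription rises when a cell receives an interferon signal. They were chosen by name. Each listed symbol was matched through its Ensembl identifier and GENCODE M21, a mouse gene annotation, to 1 row of a count table of 53715 genes, and the rule used no measured value. By role they comprised 29 sensors, transcription factors and antiviral effectors and 17 GTPases and antigen-processing genes. All 46 passed the filter on low counts, which left 16558 genes for testing. RNA-seq was performed on mucosa of the ileum and the colon from 8-week-old male C57BL/6J mice, with 3 libraries in each of 4 groups, ileum control, ileum KO, colon control and colon KO. KO stands for Slc39a8-IEC KO. In these mice both alleles of Slc39a8, a metal ion transporter gene, were floxed, and Cre recombinase came from a Villin-Cre transgene expressed in the gut epithelium, so that the other cells of the mucosa kept the gene. By the labels, control mice carried the same floxed alleles with no Cre named, whereas the methods say that the controls of the study also took in wild-type mice, heterozygous floxed mice and mice with Villin-Cre alone. The labels name no infection, interferon or other treatment.

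Interferons are secreted signals of antiviral and antibacterial defence. Type I and type III interferons act through Jak kinases on a complex that contains Stat2 and Irf9 and binds a DNA element called the interferon-stimulated response element. Interferon gamma, the type II interferon of T cells and natural killer cells, acts through a different DNA element, the gamma-activated site, and induces Irf1, the guanylate-binding proteins, the immunity-related GTPases and the machinery of antigen presentation. In the gut, type III interferon acts mainly on epithelial cells, and the microbiota keeps a low level of interferon-stimulated transcription in healthy tissue.

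Library totals ranged from 16749138 to 27903083 expected counts, and levels are given as CPM, counts scaled to the TMM-adjusted library size. Values for 3 libraries are listed in the order of replicates 1 to 3. Slc39a8 itself measured 8.39, 5.22 and 6.59 CPM in the ileum of control mice and 4.35, 2.62 and 2.80 CPM in the ileum of KO mice, and in the colon 20.8, 20.5 and 20.1 CPM against 7.35, 11.5 and 7.93 CPM. The groups did not overlap in either tissue, and the exact permutation test over both tissues gave its smallest possible value, p = 0.005. That test exchanged genotype separately in each tissue, which takes ileal and colonic libraries to come from different mice, and no source states this. Its log2 fold change in the fit of all 12 libraries was -1.13 ± 0.17 (SE), with an edgeR adjusted p of 0.382. The enterocyte gene Fabp6 ranged from 3362 to 7110 CPM in ileal and from 5.76 to 26.8 CPM in colonic libraries. Some ileal libraries stood apart. Ileum control 3 and ileum KO 1 held few smooth muscle transcripts, with a summed level of 6 muscle markers of 34.2 and 20.2 CPM against 1814 to 2643 CPM in the other 4. Ileum KO 2 was high in some of the 4 markers of colonic epithelium. Aqp8 measured 67.3 CPM where the other 5 ileal libraries held at most 0.358 CPM, and Car1 2632 CPM against 3.4 to 144 CPM. Slc26a3 differed little (266 against 139 to 207 CPM). Car4, at 129 CPM, lay within the range of the others, 84.6 to 436 CPM. The RNA came from whole mucosa, so fewer cells of a type and less RNA per cell cannot be told apart.

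Promoter sequences were searched for the elements that the factors of the pathway are known to bind. RefSeq promoters of GRCm38.p6 were found for 34 of the 46 genes. In the 250 bases before the start, on either strand, the core of the interferon-stimulated response element was searched as TTCNNTTTC, which reads GAAANNGAA on the other strand, and the gamma-activated site as TTCNNNGAA. The first was present in 21 of the 34 genes (61.8%), against 8.18% of all 27025 genes of the RefSeq promoter set. The second was present in 11 (32.4%, against 8.13%), and both in 8 (23.5%, against 1.02%). These matches are a description of letters, not of bound sites. The windows listed represent the roles and the near-identical pairs, written 5′ to 3′ on the strand of the gene with the letters of the matches in capitals.
Isg15 (chr4:156200866-156200906, minus strand): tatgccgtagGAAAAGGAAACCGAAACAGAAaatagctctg
Ifit1 (chr19:34640770-34640823, plus strand): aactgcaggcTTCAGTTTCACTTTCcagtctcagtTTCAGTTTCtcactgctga
Ifit3 (chr19:34583364-34583445, plus strand): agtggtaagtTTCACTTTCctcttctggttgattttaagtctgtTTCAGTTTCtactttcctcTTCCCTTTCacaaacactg
Ifit3b (chr19:34607760-34607841, plus strand): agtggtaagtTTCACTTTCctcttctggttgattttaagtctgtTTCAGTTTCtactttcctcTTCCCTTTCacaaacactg
Oas1a (chr5:120907526-120907555, minus strand): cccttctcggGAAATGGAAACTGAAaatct
Oas1g (chr5:120887614-120887641, minus strand): cccttctcggGAAATGGAAACTGAAaat
Gbp2 (chr3:142620595-142620623, plus strand): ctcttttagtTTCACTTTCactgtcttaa
Igtp (chr11:58199501-58199540, plus strand): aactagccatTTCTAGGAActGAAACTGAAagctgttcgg
Irgm2 (chr11:58214892-58214931, plus strand): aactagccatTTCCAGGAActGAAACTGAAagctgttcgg
Tgtp1 (chr11:48992305-48992344, minus strand): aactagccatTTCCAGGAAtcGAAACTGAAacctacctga
Tgtp2 (chr11:49064264-49064303, minus strand): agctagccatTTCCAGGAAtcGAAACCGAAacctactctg
Irf1 (chr11:53769914-53769942, plus strand): acagcctgatTTCCCCGAAatgatgaggc
Psmb8 (chr17:34198088-34198116, plus strand): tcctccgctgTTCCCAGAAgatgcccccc
Isg15, Ifit1, Ifit3 and Ifit3b each carried 3 matches to the response element in these windows, Oas1a and Oas1g carried 2 overlapping ones, and Gbp2 carried 1. The windows of Ifit3 and Ifit3b were the same letter for letter. In Igtp, Irgm2, Tgtp1 and Tgtp2 a gamma-activated site lay directly before a response element. Irf1 and Psmb8 held a gamma-activated site and no response element within the searched bases. All 5 immunity-related GTPases and all 4 guanylate-binding protein genes with a promoter held the response element. The 3 antigen-processing genes held none, as did Irf7, Irf9, Oasl1, Oasl2, Cmpk2, Ifi44, Xaf1, Ddx58 and Ifit2.

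Many of the 46 genes lie in clusters of related copies, which limits how well their reads can be told apart. In windows of 75 bases of their annotated transcripts, Tgtp2 shared 81.4% with other genes and Tgtp1 77.2%, almost all with each other. Gbp6 shared 67.3%, mostly with the gene model Gm43302, Oas1a shared 47.6% with Oas1g, and Ifit3 shared 41.1% with Ifit3b. The genes Gbp4, Gbp8 and Gbp9 overlap on the minus strand of chromosome 5 within chr5:105014150-105139586, and Igtp overlaps Irgm2 on chromosome 11 within chr11:58199556-58222782 (GRCm38). Tap1 at chr17:34187553-34197225 and Psmb9 at chr17:34181987-34187764 overlap on opposite strands. The study's reporting summary says that uniquely mapped reads were kept and counted with FeatureCounts, which gives whole numbers, whereas the table holds expected counts. How reads of these copies were divided is therefore unclear, and the separate levels of these genes are uncertain. Mx2 is annotated as a polymorphic pseudogene.

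Compared per length, as mean CPM per kilobase of exon over the 6 libraries of a tissue, Irf7 was the highest of the 46 genes in both tissues, at 61.3 in the ileum and 104 in the colon. Irf7 is the factor that amplifies type I interferon production. In the ileum Irf1 (57.1), Isg15 (54.0), Oasl1 (53.2) and Ifit1 (51.6) followed, and in the colon Ifit1 (96.2), Isg15 (68.8), Oas1a (49.1) and Irf1 (38.8). Gbp5 was the lowest in both, at 0.501 and 0.311 CPM per kilobase. The neighbouring ileal ranks from Irf1 to Ifit1 differed by less than the spread between libraries, since Isg15 alone varied from 27.6 to 53.9 CPM over the 6 ileal libraries.

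In the colon these genes differed widely between libraries within each genotype. Colon control 2 and colon KO 1, 1 library of each genotype, were the 2 lowest of the 6 colonic libraries for 41 of the 46 genes (89.1%), against 7.50% of all 16558 genes tested. This pair was chosen after the values were seen, and the counts are a description. It held for 28 of the 29 sensors, factors and antiviral effectors and for 13 of the 17 GTPases and antigen-processing genes. The exceptions were Irf1, Gbp2, Gbp4, Gbp5 and Tgtp2. Colon KO 1 was the lowest colonic library for 41 genes, and colon KO 3 was the highest for 25.

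**Figure D1:**
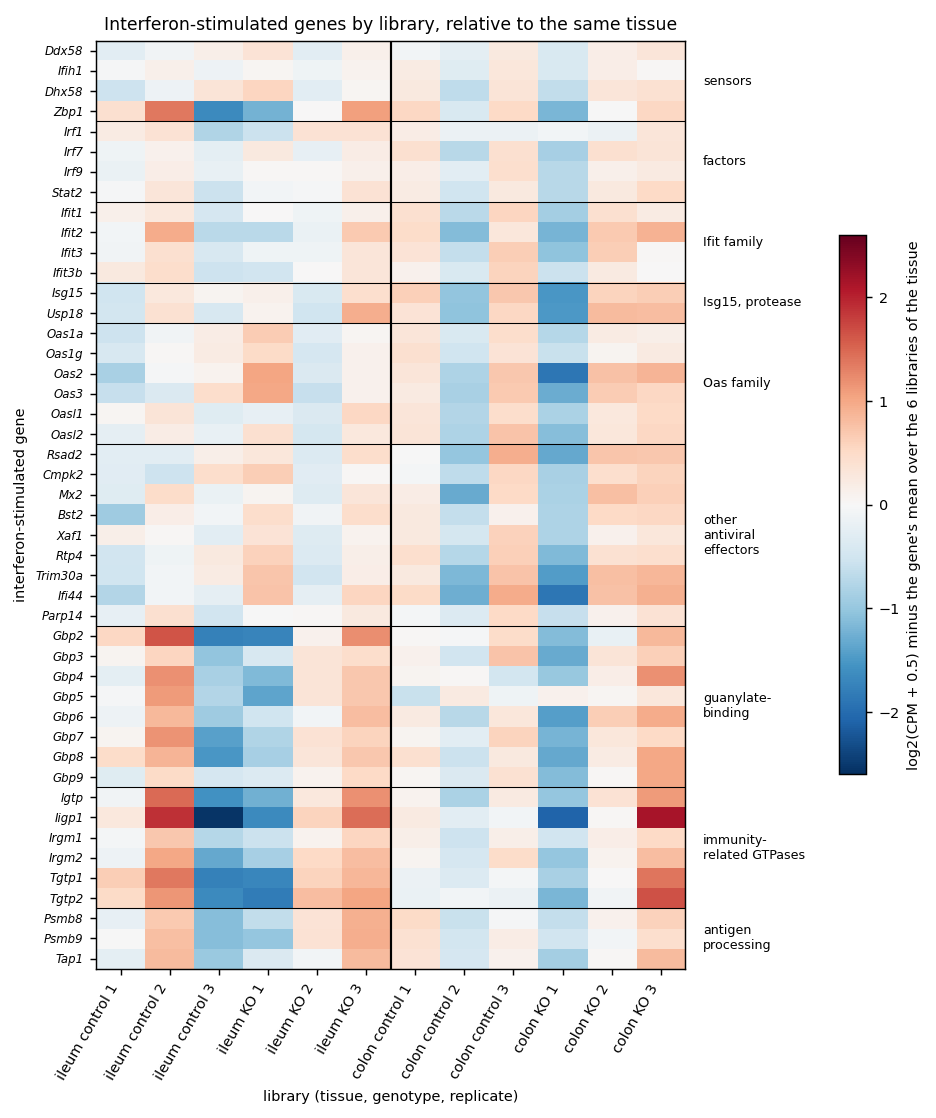
Heat map of the 46 genes (rows, by role) in the 12 libraries (columns), coloured by log2(CPM + 0.5) minus the gene's mean over the 6 libraries of the same tissue. Colon control 2 and colon KO 1 are blue for nearly all rows, and ileum control 3 and ileum KO 1 are blue for the 17 GTPases and antigen-processing genes at the bottom.

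Isg15, the ubiquitin-like protein conjugated to proteins during infection, shows the pattern. It measured 68.3, 21.3 and 72.4 CPM in the colon of control mice and 15.1, 66.0 and 68.9 CPM in the colon of KO mice. The other 4 colonic libraries lay within 66.0 to 72.4 CPM, and the 2 low libraries at 21.3 and 15.1 CPM. In the ileum the range was narrower, with 27.6, 47.9 and 42.0 CPM in control and 43.5, 30.2 and 53.9 CPM in KO mice. Usp18, the protease that removes Isg15 and damps receptor signalling, measured 26.5, 9.74 and 30.3 CPM in colonic control and 6.97, 36.9 and 36.5 CPM in colonic KO libraries. The same 2 libraries were again the lowest. In the ileum Usp18 measured 13.7, 25.6 and 14.4 CPM in control and 20.7, 13.3 and 37.8 CPM in KO mice.

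The same pair of libraries was also low in the summed markers of cytotoxic lymphocytes, and in 4 of the 6 markers it was the lowest pair. The summed level of 6 such markers, all detected in every library, was 15.4 CPM in colon control 2 and 20.8 CPM in colon KO 1, against 39.3 to 60.2 CPM in the other 4 colonic libraries. Granzyme A (Gzma) measured 7.15 and 9.05 CPM there, and 18.8 to 33.6 CPM in the others. Gzma made up much of the sum, and Nkg7 and Prf1 did not set the pair apart. For the 6 T cell markers the sums were 7.72 and 9.66 CPM, against 10.9 to 20 CPM, and 4 of the 6 had the pair lowest, Cd3e and Cd8a being the exceptions. Summed markers of epithelium, 7992 and 8585 CPM against 7941 to 9176 CPM, and of smooth muscle, 3954 and 2536 CPM against 2614 to 3444 CPM, did not set the pair apart in 1 direction. The part of these cells in the levels of the interferon-stimulated genes was not tested.

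In the ileum a different split appeared, and it went largely by role. The genes and their lists were chosen with earlier results of these data known, so these counts too are a description. Ileum control 3 and ileum KO 1, the libraries with few smooth muscle transcripts, were the 2 lowest for all 17 GTPases and antigen-processing genes, against 27.7% of all genes tested, and for only 6 of the 29 sensors, factors and antiviral effectors. Among those 29, ileum KO 1 was the highest library for 14 (48.3%, against 18.5% of all genes tested). Ileum control 3 was still the lowest for 11 of them (37.9%, against 20.9%). Ileum KO 2 was among the 2 lowest for 21 (72.4%, against 22.9%). Cytotoxic lymphocyte markers summed to 48.5 and 78.3 CPM in ileum control 3 and KO 1, against 242 to 366 CPM in the other 4. For T cell markers the sums were 19.1 and 22.3 CPM, against 46.7 to 59.4 CPM. All 6 cytotoxic markers had this pair lowest, as did 4 of the 6 T cell markers, Cd4 and Cd8b1 being the exceptions. Low levels were not confined to lymphocytes. The pair was also lowest in summed markers of fibroblasts (42.6 and 39.3 against 291 to 557 CPM) and plasma cells (385 and 388 against 672 to 1118 CPM). The same held for macrophages and dendritic cells (38.5 and 33.1 against 43.6 to 62.4 CPM). All 5 fibroblast markers had the pair lowest. Of the plasma cell markers 3 of 5 did, Sdc1 and Derl3 being the exceptions. Of those of macrophages and dendritic cells 3 of 6 did, Cd68, Csf1r and Itgax being the exceptions. Epithelium differed less (15958 and 17062 against 17826 to 20541 CPM). B cell markers went the other way, at 44.6 and 52.2 CPM against 3.79 to 8.22 CPM. Ileal enterocyte markers had a higher sum too (13920 and 16486 against 12008 to 13172 CPM), but they did not agree. Apoa1 was higher in the pair (7526 and 8787 against 3896 to 6143 CPM), and Slc10a2 had the pair lowest. Fabp6 and Apoa4 did not set the pair apart. Endothelial markers did not set the pair apart. Ifng, which encodes interferon gamma, measured 0.0425 and 0.0596 CPM there and 0.234 to 1.28 CPM in the other 4. The part of these cells was not tested.

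**Figure D2:**
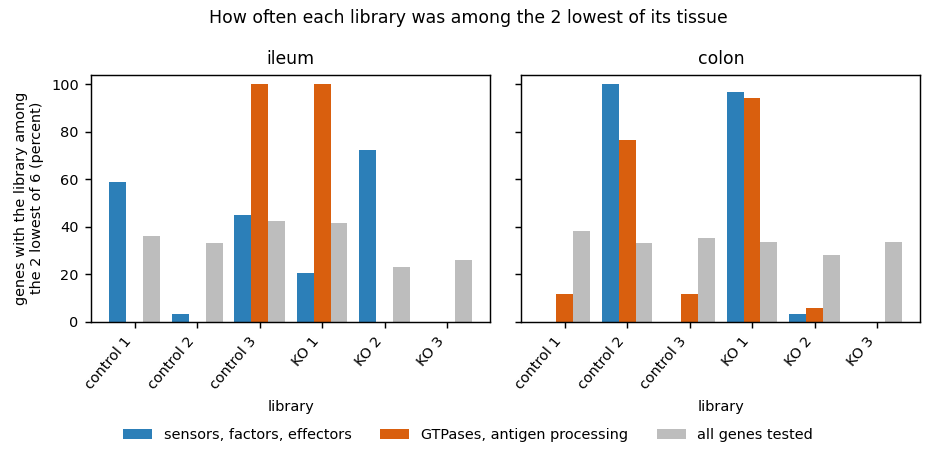
Percentage of genes (y axis) for which each library was among the 2 lowest of the 6 libraries of its tissue, for the 29 sensors, factors and effectors, the 17 GTPases and antigen-processing genes and all 16558 genes tested. In the colon both sets single out control 2 and KO 1, while in the ileum only the GTPases and antigen-processing genes single out control 3 and KO 1, at 100% each.

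The spread between libraries of 1 tissue was accordingly large. The ratio of the highest to the lowest of 6 libraries had a median of 3.4 over the 46 genes in the colon, against 1.54 over all genes with a count in every library, and it passed 2-fold for 42 of the 46 (91.3%, against 29.1%). In the ileum the median was 2.55, against 1.88, with 5.67 for the 17 GTPases and antigen-processing genes and 1.96 for the other 29. Iigp1 varied most, from 1.74 to 48.5 CPM in the ileum, and Ifih1 least, from 120 to 144 CPM. These spreads set the size of difference that 3 libraries a group could show.

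The first comparison the design allows is that of colon with ileum. In control mice 10 of the 46 genes passed an adjusted p of 0.1 in edgeR's quasi-likelihood test (21.7%, against 35.9% of all genes tested), 6 higher in the colon (16.2% of all genes) and 4 lower (19.6%). In KO mice 7 passed (15.2%, against 37.1%), 1 higher (17.1%) and 6 lower (20%). Both shares lay below the background, so a difference between the tissues was no more frequent among these genes than elsewhere. The 14 genes called in at least 1 genotype included 3 called in both, Ddx58, Oasl1 and Gbp8, each lower in the colon. The split between directions depended on the scaling. With the library size alone the calls were 10 higher and 2 lower in control mice and 7 higher and 1 lower in KO mice. Of all genes, 25.1% were called higher and 12.7% lower with that scaling in control mice, and 28.0% and 11.5% in KO mice. Upper-quartile factors gave 9 and 2 calls in control mice (20.4% and 16.6% of all genes) and 4 and 1 in KO mice (22.2% and 15.9%). Over all genes these scalings shifted the median log2 fold change by 0.22 and 0.27, and by 0.10 and 0.13. Without overlap between the 3 colonic and 3 ileal libraries lay 2 genes higher and 4 lower in the colon of control mice, against 40.7% of all genes, and 0 higher and 4 lower in KO mice, against 50.4%.

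**Figure D3:**
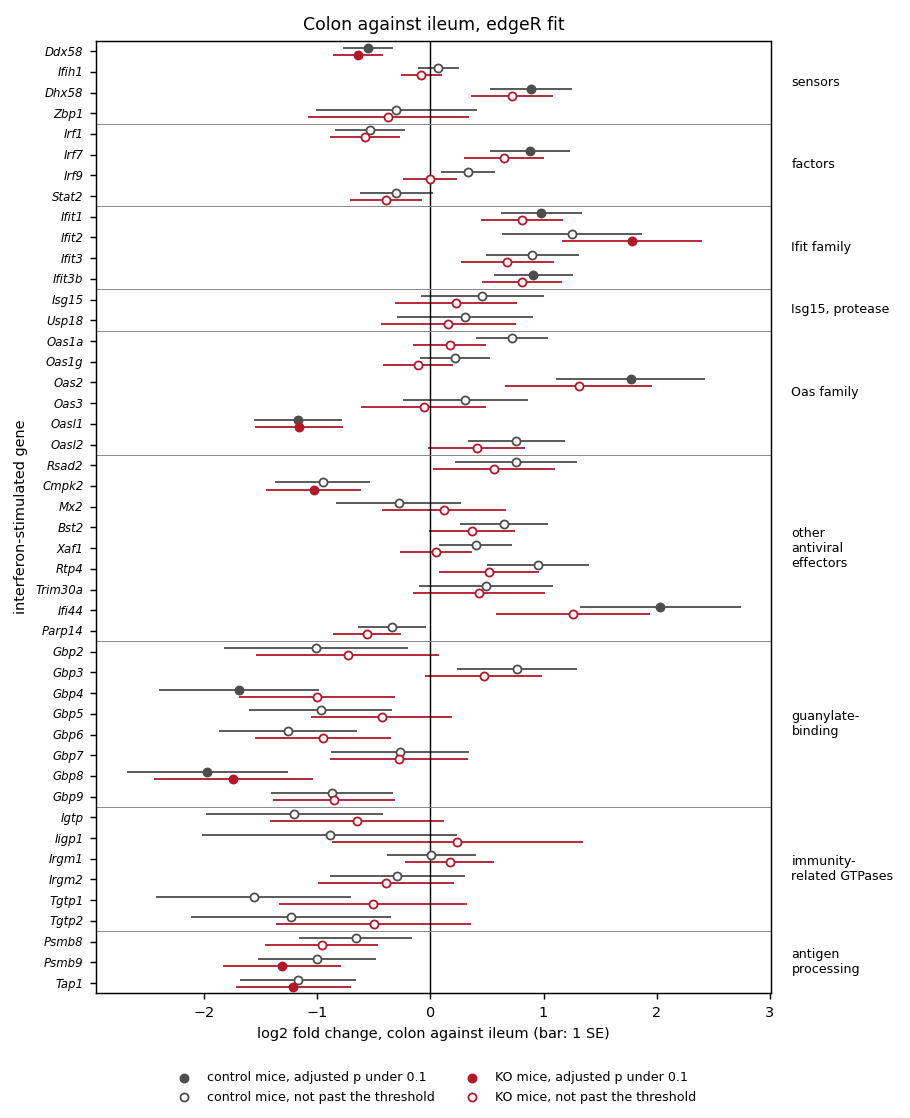
Log2 fold change of colon against ileum for each of the 46 genes in control and in KO mice, with bars of 1 SE from the edgeR fit and filled points for an adjusted p under 0.1. The Ifit family lies to the right of 0 in both genotypes, and 15 and 14 of the 17 GTPases and antigen-processing genes lie to the left in control and KO mice.

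Among the sensors, which detect foreign RNA and DNA, Ddx58 (RIG-I) was lower in the colon of both genotypes. It measured 44.1, 49.7 and 59.4 CPM in the ileum of control mice and 33.5, 29.4 and 41.8 CPM in the colon, and in KO mice 68.4, 44.0 and 58.6 CPM and 26.4, 39.6 and 43.7 CPM. Neither genotype's groups overlapped. The log2 fold change was -0.55 ± 0.22 (SE, adjusted p = 0.0887) in control and -0.64 ± 0.22 (adjusted p = 0.0503) in KO mice by edgeR, and -0.34 and -0.37, both past no threshold, with the library size alone. Dhx58 (LGP2), a regulator of RIG-I and MDA5, was higher in the colon of control mice, with 8.45, 11.4 and 15.8 CPM in the ileum and 25.8, 13.3 and 27.2 CPM in the colon. Colon control 2 overlapped the ileal values. Its log2 fold change was 0.89 ± 0.36 (adjusted p = 0.0919), and in KO mice, at 18.5, 10.2 and 12.9 against 13.5, 26.9 and 28.2 CPM, it was 0.72 ± 0.36 (adjusted p = 0.160).

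Ifih1 (MDA5), the sensor of long double-stranded RNA, held the steadiest level of the 46 genes in the ileum. It measured 129, 144 and 120 CPM in the ileum of control mice and 135, 121 and 140 CPM in that of KO mice, and 150, 103 and 159 and 98.3, 146 and 131 CPM in the colon. The tissues overlapped, with a log2 fold change of 0.07 ± 0.18 in control mice. Zbp1, a sensor of Z-form nucleic acid, varied far more. It measured 88.2, 173 and 20.8 CPM in control and 28.0, 66.8 and 139 CPM in KO mice in the ileum, and 91.1, 47.9 and 89.5 and 27.4, 62.3 and 91.1 CPM in the colon. Its low ileal values were those of ileum control 3 and ileum KO 1, as for the GTPases.

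Among the transcription factors Irf7 was called higher in the colon of control mice. Its levels were 213, 247 and 193 CPM in the ileum and 488, 221 and 489 CPM in the colon of control mice, and 274, 198 and 264 CPM and 202, 491 and 459 CPM in KO mice. In 4 colonic libraries Irf7 lay between 459 and 491 CPM, above every ileal library, while colon control 2 and colon KO 1 lay within the ileal range. The log2 fold change was 0.88 ± 0.35 (adjusted p = 0.0835) in control and 0.65 ± 0.35 (adjusted p = 0.188) in KO mice. Irf1, the factor induced most directly by interferon gamma, showed no such low colonic libraries. It measured 175, 138 and 138 CPM in colonic control and 145, 137 and 191 CPM in colonic KO libraries, a 1.40-fold range. In the ileum it measured 250, 281 and 125 CPM and 146, 282 and 280 CPM, lowest in ileum control 3 and ileum KO 1. Its log2 fold changes were -0.53 ± 0.31 and -0.58 ± 0.31, neither past the threshold. Stat2 and Irf9, which form the complex downstream of the type I receptor, were not called either, with log2 fold changes of -0.30 ± 0.32 and 0.33 ± 0.24 in control mice. Irf9 measured 49.2, 62.3 and 48.4 and 56.3, 56.8 and 61.0 CPM in the ileum and 68.3, 50.1 and 82.3 and 36.6, 66.3 and 71.5 CPM in the colon.

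The Ifit family, cytoplasmic proteins that bind foreign RNA ends, had positive log2 fold changes for colon against ileum in all 4 members and in both genotypes, under every scaling tried. Ifit1 measured 148, 164 and 99.6 CPM in the ileum and 317, 145 and 349 CPM in the colon of control mice, and 137, 125 and 149 against 128, 316 and 277 CPM in KO mice. Only colon control 2 and colon KO 1 fell within the ileal range. The log2 fold change was 0.98 ± 0.36 in control mice (adjusted p = 0.0643) and 0.81 ± 0.36 in KO mice (adjusted p = 0.116). Ifit2 was called in KO mice, where it measured 12.6, 18.4 and 33.4 CPM in the ileum and 24.1, 90.9 and 106 CPM in the colon. Colon KO 1 lay among the ileal values and the other 2 colonic libraries above them. The log2 fold change was 1.78 ± 0.62 (adjusted p = 0.0522) in KO mice and 1.25 ± 0.62 (adjusted p = 0.157) in control mice, with 19.8, 41.3 and 12.5 against 79.2, 25.7 and 69.7 CPM.

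The near-identical pair Ifit3 and Ifit3b moved alike. Ifit3 measured 29.8, 42.7 and 23.5 and 65.6, 33.2 and 80.4 CPM in the ileum and colon of control mice, and 29.3, 29.5 and 39.3 and 24.8, 80.0 and 52.7 CPM in KO mice. Ifit3b measured 8.39, 9.78 and 4.67 and 13.9, 9.59 and 19.4 CPM in control mice, and 4.77, 7.03 and 8.86 and 8.48, 15.0 and 12.9 CPM in KO mice. The control log2 fold changes were 0.90 ± 0.41 (adjusted p = 0.124) for Ifit3 and 0.91 ± 0.35 (adjusted p = 0.0760) for Ifit3b, so that only the second passed. Since the pair shared much of its sequence, these values are not independent. Neither Isg15 nor Usp18 was called, with log2 fold changes of 0.46 ± 0.54 and 0.31 ± 0.60 in control mice.

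**Figure D4:**
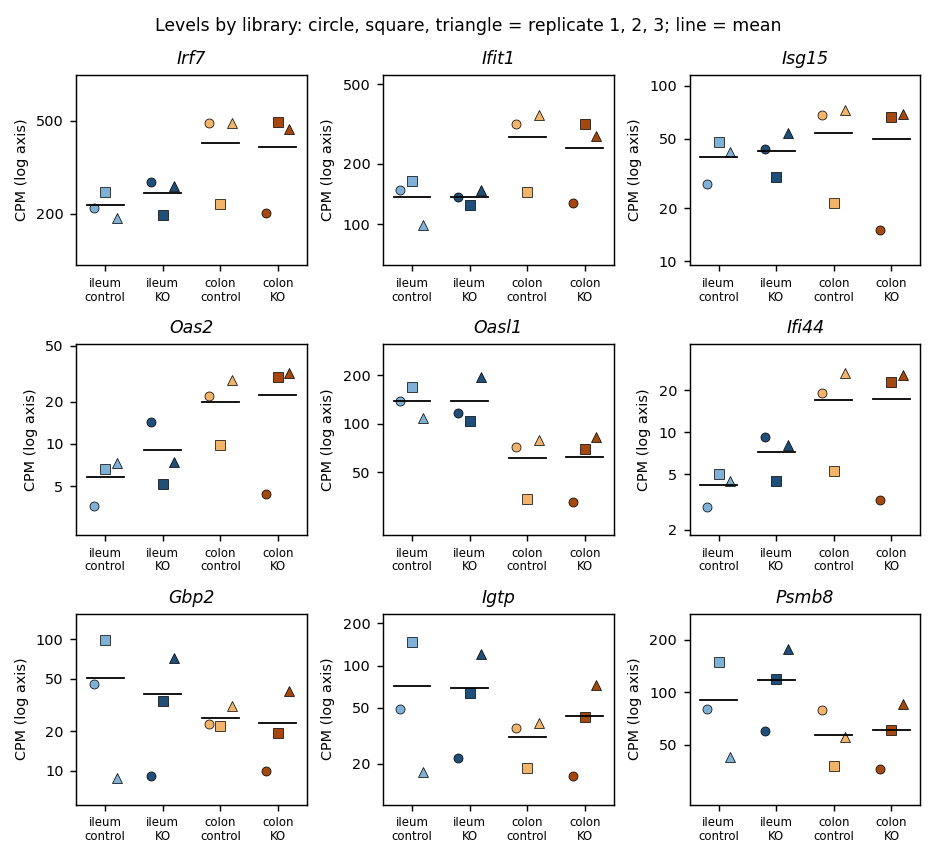
CPM on a log axis for 9 of the genes in the 4 groups, with circles, squares and triangles for replicates 1, 2 and 3 and a line at the group mean. Colon control 2 (square) and colon KO 1 (circle) are the lowest of their groups in every panel, and ileum control 3 (triangle) and ileum KO 1 (circle) lie low for Gbp2, Igtp and Psmb8.

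The Oas family, enzymes that make the messenger that activates RNase L and their relatives, did not move as a group. Oas2 was higher in the colon of control mice, at 3.59, 6.61 and 7.31 CPM in the ileum and 21.8, 9.79 and 28.4 CPM in the colon, without overlap. Its log2 fold change was 1.77 ± 0.66 (adjusted p = 0.0672). In KO mice Oas2 measured 14.4, 5.16 and 7.44 CPM in the ileum and 4.38, 29.9 and 32.2 CPM in the colon, which overlapped, with 1.31 ± 0.65 (adjusted p = 0.154). Oasl1, which restrains translation of Irf7, went the opposite way. It measured 139, 170 and 108 CPM in the ileum and 71.3, 33.9 and 79.3 CPM in the colon of control mice, and 116, 104 and 196 and 32.5, 69.8 and 82.9 CPM in KO mice. Every ileal library lay above every colonic one. The log2 fold changes of -1.17 ± 0.39 (adjusted p = 0.0438) and -1.16 ± 0.39 (adjusted p = 0.0449) were the only ones past an adjusted p of 0.05. Oasl1 was called in 21 of 23 settings of the analysis in each genotype, the exceptions including the fit without the low colonic library of that genotype.

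Oas1a and Oas1g, which share much sequence, were highest in the ileum in ileum KO 1. Oas1a measured 45.4, 62.2 and 75 CPM in the ileum of control mice and 105, 54.0 and 68.2 CPM in that of KO mice, and 111, 67.9 and 122 and 52.9, 103 and 98.8 CPM in the colon. Oas1g measured 35.8, 49.1 and 55.4, 67.3, 35.4 and 51.6, 66.0, 34.4 and 62.9 and 32.7, 52.0 and 57.8 CPM in the same order of groups. Neither was called, with log2 fold changes of 0.72 ± 0.32 and 0.22 ± 0.31 in control mice. Oasl2, at 194, 87.7 and 256 CPM in colonic control and 71.2, 187 and 222 CPM in colonic KO libraries, again had its lowest values in the 2 low libraries. In the ileum it measured 93.8, 126 and 97.1 and 147, 80.9 and 134 CPM, and it was not called (0.76 ± 0.43 in control mice). Oas3 ranged from 42.4 to 129 CPM in the ileum and from 26.9 to 108 CPM in the colon.

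Of the 9 other antiviral effectors Ifi44, an interferon-induced protein of poorly known function, rose most between the tissues. It measured 2.93, 5.05 and 4.46 CPM in the ileum and 19.1, 5.23 and 26.7 CPM in the colon of control mice, without overlap, although colon control 2 exceeded the highest ileal control library only narrowly. The log2 fold change was 2.03 ± 0.71 (adjusted p = 0.0519). In KO mice it was 1.26 ± 0.68 (adjusted p = 0.192), at 9.18, 4.46 and 8.05 against 3.25, 23.0 and 25.6 CPM, and colon KO 1 lay below every ileal KO library. Cmpk2, a mitochondrial nucleotide kinase, was called lower in the colon of KO mice. Its levels were 50.9, 42.4 and 85.4 and 29.2, 19.1 and 44.0 CPM in control and 97.0, 50.8 and 63.4 and 16.7, 41.0 and 45.3 CPM in KO mice. The KO libraries of the tissues did not overlap. The log2 fold change in KO mice was -1.03 ± 0.42 (adjusted p = 0.0872), and in control mice it was -0.95 ± 0.42 (adjusted p = 0.115). The gene next to it on chromosome 12, Rsad2 (viperin), had the opposite sign, 0.76 ± 0.54 and 0.56 ± 0.54, and was not called.

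Parp14, an ADP-ribosyltransferase and the effector of highest CPM, measured 143, 223 and 118, 166, 169 and 199, 116, 93.9 and 172 and 79.2, 129 and 155 CPM in ileal control, ileal KO, colonic control and colonic KO libraries. It was not called in either genotype. Bst2 (tetherin), which holds budding virus at the cell surface, measured 9.32, 20.4 and 17.2 CPM in control and 25.2, 17.1 and 25.0 CPM in KO mice in the ileum, and 30.3, 16.3 and 27.2 and 14.2, 36 and 36.7 CPM in the colon. The tissue contrasts of 0.65 ± 0.39 and 0.37 ± 0.38 missed the threshold. Xaf1, Rtp4, Trim30a and Mx2 were not called either, and their control log2 fold changes ran from -0.28 ± 0.55 for Mx2 to 0.95 ± 0.45 for Rtp4.

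The guanylate-binding proteins, large GTPases that attack the vacuoles of intracellular microbes, had mostly negative values for colon against ileum. In control mice 7 of the 8 had negative log2 fold changes, 6 with the library size alone, and the median was -0.99, against -0.70 with that scaling. Gbp8 was called in both genotypes. It measured 22.8, 30.6 and 5.40 CPM in the ileum and 6.30, 2.97 and 5.65 CPM in the colon of control mice, and 8.82, 20.3 and 27 and 1.55, 5.44 and 9.75 CPM in KO mice. The log2 fold changes were -1.97 ± 0.71 (adjusted p = 0.0573) and -1.74 ± 0.70 (adjusted p = 0.0840), although ileum control 3 and ileum KO 1 lay within the colonic range. Gbp4 measured 5.92, 17.1 and 3.82 and 3.17, 3.07 and 2.02 CPM in control mice, without overlap (-1.69 ± 0.71, adjusted p = 0.0984). In KO mice, at 2.98, 9.26 and 12.1 and 1.27, 3.42 and 7.47 CPM, it was not called (-1.0 ± 0.69, adjusted p = 0.306).

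Gbp2 and Gbp6, the 2 of highest CPM, were not called. Gbp2 measured 45.6, 98.1 and 8.88 and 9.18, 33.8 and 72.6 CPM in the ileum, an 11-fold range, and 22.7, 21.8 and 31.2 and 9.94, 19.4 and 40.6 CPM in the colon. Ileum control 3 and ileum KO 1 held less Gbp2 than any colonic library. Gbp6 measured 34.3, 68.1 and 19.7 and 26.1, 35.9 and 66.5 CPM in the ileum and 20, 10.1 and 20.7 and 5.98, 26.7 and 33.7 CPM in the colon. Gbp3 alone of the family had a positive value in both genotypes, 0.77 ± 0.53 and 0.47 ± 0.52, neither past the threshold. With ileum control 3 and ileum KO 1 left out, 5 of the 8 were called lower in the colon of control mice and 4 in KO mice, against 22.0% and 21.7% of all genes in the same fits. These were the 2 lowest ileal libraries for every gene of the family, so leaving them out must raise the ileal mean. The counts therefore show dependence on those libraries and are no independent support.

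The immunity-related GTPases, which also act on vacuoles of microbes, contained no call in either genotype. Igtp measured 49.5, 147 and 17.4 and 21.9, 63.7 and 122 CPM in the ileum and 35.7, 18.6 and 39.1 and 16.4, 43.1 and 72.7 CPM in the colon. Irgm1, a regulator of the family, was steadier, at 87.1, 146 and 53.9 and 61.3, 95.5 and 132 CPM in the ileum and 110, 68.1 and 110 and 70.1, 112 and 142 CPM in the colon. Their control log2 fold changes were -1.20 ± 0.78 and 0.01 ± 0.39. Iigp1, which breaks up vacuole membranes, measured 15.4, 48.5 and 1.74 and 3.64, 19.2 and 35.5 CPM in the ileum and 14.2, 9.79 and 11.4 and 2.45, 12.2 and 54.5 CPM in the colon. Colon KO 3 stood at 54.5 CPM, above the other 5 colonic libraries, which held 2.45 to 14.2 CPM.

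The pair Tgtp1 and Tgtp2 followed Iigp1. Tgtp1 measured 11.4, 19.1 and 1.74 and 1.85, 10.8 and 13.3 CPM in the ileum and 3.74, 3.17 and 4.0 and 2.12, 4.20 and 11.8 CPM in the colon, and Tgtp2 16.1, 25.4 and 3.23 and 2.80, 19.9 and 23.2 CPM in the ileum and 6.09, 6.62 and 6.26 and 2.78, 6.53 and 23.1 CPM in the colon. In the ileum both were lowest in ileum control 3 and ileum KO 1, and both were highest among colonic libraries in colon KO 3. Their SEs of 0.86 and 0.88 in control mice, and 1.13 for Iigp1, were among the largest of the 46 genes. Without the 2 ileal libraries of few muscle transcripts, 3 of the 6 GTPases of this family were called lower in the colon of control mice, against 22.0% of all genes, and none in KO mice, against 21.7%. Here too the libraries left out were the 2 lowest ileal ones for every gene of the family.

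The antigen-processing genes make and move peptides for MHC class I. Tap1, a subunit of the peptide transporter, measured 71.1, 150 and 42.8 and 48.5, 27.8 and 40.9 CPM in the ileum and colon of control mice, and 65.2, 80.7 and 150 and 20.5, 39.1 and 67.8 CPM in KO mice. Psmb8, a subunit of the immunoproteasome, measured 79.9, 149 and 42.5 and 78.8, 37.5 and 55.1 CPM in control mice, and 59.7, 119 and 176 and 36.3, 60.4 and 85.6 CPM in KO mice. In both genes ileum control 3 and ileum KO 1 lay within the colonic range of their genotype. In KO mice Tap1 (-1.21 ± 0.51, adjusted p = 0.0977) and the immunoproteasome subunit Psmb9 (-1.31 ± 0.52, adjusted p = 0.0815) were called lower in the colon. In control mice the 3 values ran from -1.17 ± 0.51 to -0.66 ± 0.50 with none called. Without the 2 muscle-poor ileal libraries all 3 were called lower in both genotypes, where 22.0% and 21.7% of all genes were. Since these were the 2 lowest ileal libraries for all 3 genes, leaving them out must raise the ileal mean, and the calls are no independent support.

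Across the 46 genes the calls depended on those 2 ileal libraries and on the 2 low colonic ones. Without ileum control 3 and ileum KO 1, the number called rose to 18 in control mice (42.0% of all genes), 5 higher (19.9%) and 13 lower (22.0%) in the colon, and to 12 in KO mice (43.2%), 3 higher (21.5%) and 9 lower (21.7%). The 18 and 12 of 46 lay near or below these shares of all genes. Without colon control 2, the 11 calls in control mice were all higher in the colon, and all lay among the sensors, factors and antiviral effectors, where 12.2% of all genes were called higher and 15.1% lower. Without colon KO 1, the 8 calls in KO mice were likewise all higher, against 12.1% higher and 15.5% lower. The libraries left out were those low for many of these genes, so the direction of these shifts followed from the choice of libraries. They show dependence on single libraries and not a separate result on the tissues. The sign of the log2 fold change was the same in both genotypes for 40 of the 46 genes. The genotypes shared no library in these contrasts, but their libraries were fitted with 1 estimate of the spread.

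The second comparison asks whether loss of Slc39a8 in the epithelium changed these genes. None of the 46 passed an adjusted p of 0.1 over both tissues, in the ileum, in the colon or for the difference between the tissues, where 0.0% of all 16558 genes passed in edgeR as well. DESeq2 and limma-voom also called none of the 46 in these comparisons. At an unadjusted p under 0.05 the count was 0 of 46 in each by each of the 3 tools, against 3.87% of all genes over both tissues, 1.52% in the ileum, 2.33% in the colon and 1.02% for the difference (edgeR). Shares of all genes under DESeq2 and limma-voom are not given here, so the counts by those tools do not single out these genes. The KO and control groups did not separate for any of the 46 in either tissue, against 3.70% of all genes in the ileum and 12.8% in the colon.

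**Figure D5:**
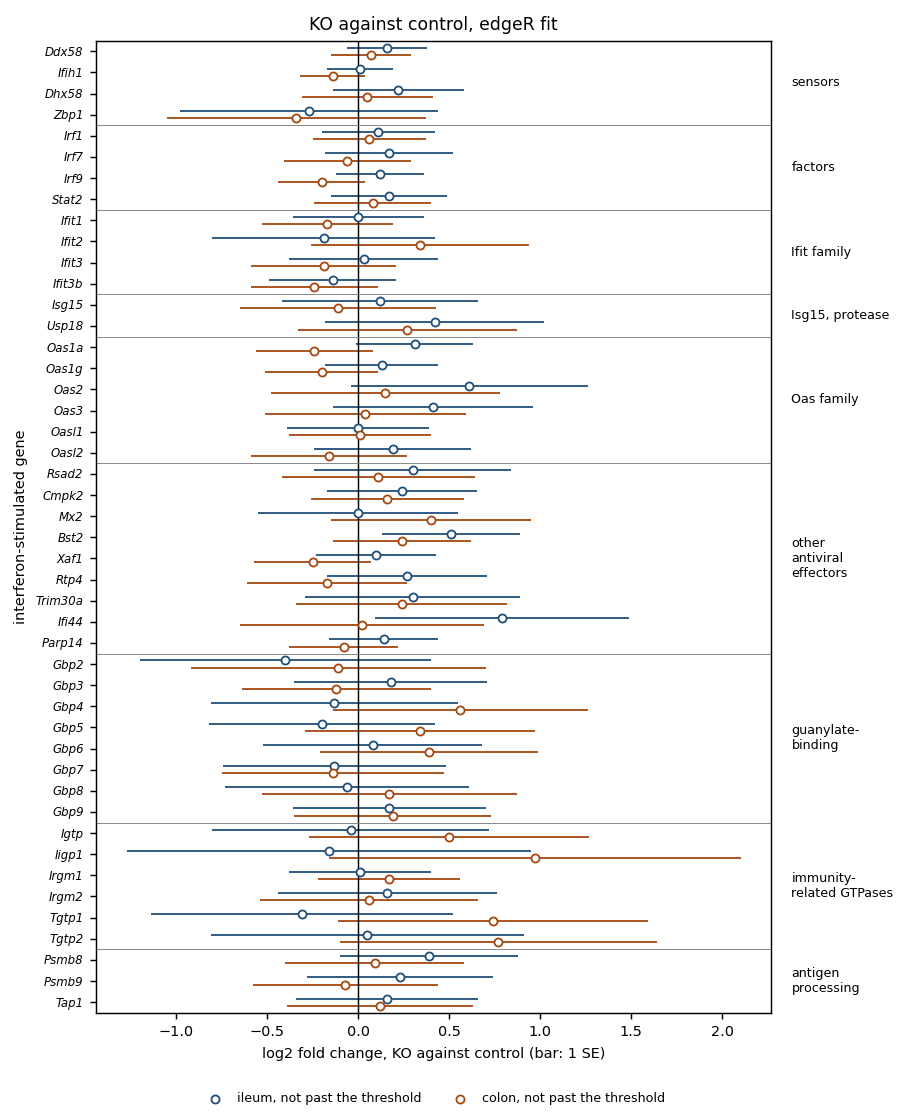
Log2 fold change of KO against control in the ileum and in the colon for each of the 46 genes, with bars of 1 SE from the edgeR fit. No gene passed an adjusted p of 0.1 in either tissue, and the widest bars are those of the immunity-related GTPases.

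The precision of this result varied by role. Over both tissues the log2 fold changes ran from -0.30 to 0.41 with a median of 0.09, and the SE ran from 0.13 to 0.78 with a median of 0.36. The SE was smallest for Ifih1, at -0.07 ± 0.13, and largest for Iigp1, at 0.40 ± 0.78. The smallest p belonged to Bst2, at 0.37 ± 0.26 (p = 0.177, adjusted p = 0.998 in edgeR, and p = 0.255 in the exact permutation test). Its ileal means were 15.6 ± 5.72 CPM in control and 22.4 ± 4.59 CPM in KO mice (SD, n = 3), and its colonic means 24.6 ± 7.33 and 29.0 ± 12.8 CPM. KO libraries overlapped control libraries in both tissues. Usp18 (0.34 ± 0.41) and Oas2 (0.37 ± 0.44) were next.

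In the ileum Bst2 (0.51 ± 0.38), Ifi44 (0.79 ± 0.70) and Oas1a (0.31 ± 0.32) had the smallest p, from 0.207 to 0.356. In the colon these were Tgtp2 (0.77 ± 0.87), Tgtp1 (0.74 ± 0.85) and Iigp1 (0.97 ± 1.13), which rested on colon KO 3. All 6 immunity-related GTPases had positive values in the colon, with a median of 0.62, and without colon KO 3 all 6 were negative, with a median of -0.31. Without colon control 2 they were 4 positive and 2 negative. In the ileum 3 were positive and 3 negative. The difference of the genotype effect between the tissues was largest relative to its error for Oas1a (-0.55 ± 0.46), Irf9 (-0.33 ± 0.34) and Tgtp1 (1.04 ± 1.19), with unadjusted p of 0.251, 0.356 and 0.397. In 1 tissue the exact permutation test on 3 against 3 libraries cannot give less than p = 0.1. Among the Ifit family the colonic values were -0.17 ± 0.36 for Ifit1, 0.34 ± 0.60 for Ifit2, -0.19 ± 0.40 for Ifit3 and -0.24 ± 0.35 for Ifit3b.

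Most of the ligands that induce these genes were not detected. Of 21 interferon genes looked for, 17 had no count in any of the 12 libraries, where the limit of 3 counts that a count of 0 allows corresponds to 0.117 to 0.200 CPM. Ifng was the only one with enough counts to be tested. It measured 0.799, 1.17 and 0.0425 CPM in control and 0.0596, 0.234 and 1.28 CPM in KO mice in the ileum, and 0.102, 0 and 0 and 0, 0.311 and 0.457 CPM in the colon, 87 counts in all. It was called lower in the colon of control mice (adjusted p = 0.0870), where 2 of the 3 libraries had no count, and not in KO mice (-1.02 ± 1.25). The control call was lost without ileum control 1 or 2, each colonic control library, ileum KO 2, colon KO 2 or colon KO 3, with adjusted p up to 0.222 (edgeR).

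Of 9 receptors and kinases that carry the signal, 3 passed as lower in the colon of control and 5 of KO mice, and none as higher, against 19.6% and 20% of all genes lower. Ifnlr1, the specific receptor chain for type III interferon, measured 22.3, 22.6 and 18.6 CPM in the ileum and 12.8, 8.88 and 9.93 CPM in the colon of control mice (-1.01 ± 0.18, adjusted p = 0.00166). Jak2, the kinase of the interferon gamma receptor, measured 210, 190 and 221 and 107, 98.9 and 109 CPM (-0.98 ± 0.11, adjusted p = 7.7e-05). In both genes the tissues did not overlap.

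Among genes for the induction of interferon, Tbk1 (-0.55 ± 0.11, adjusted p = 0.00303), the kinase that activates Irf3, and Ticam1 (-0.77 ± 0.18, adjusted p = 0.00736), an adaptor of Toll-like receptors, were lower in the colon of control mice. Of 8 negative regulators, 3 were lower in control (37.5%) and 2 in KO mice (25.0%), and none was higher. Of all genes, 35.9% and 37.1% were called, 19.6% and 20% as lower. Those called in control mice included the phosphatase Ptpn2 (-0.40 ± 0.11) and Socs3 (-2.74 ± 0.86). Socs3 measured 59.8, 277 and 18.7 CPM in the ileum and 11.9, 22.2 and 19.1 CPM in the colon of control mice, and its call was lost without ileum control 2 (-1.14 ± 0.65, adjusted p = 0.237) and without colon control 1 (-2.52 ± 1.03, adjusted p = 0.112). Of 28 other interferon-induced genes tested, 4 were higher and 5 lower in control mice and 3 higher and 7 lower in KO mice, 32.1% and 35.7% called against 35.9% and 37.1% of all genes. The smallest p-values belonged to Samd9l (1.13 ± 0.19, adjusted p = 9.0e-04) and Epsti1 (-0.95 ± 0.15, adjusted p = 7.6e-04). None of the pathway genes reported here passed in a genotype comparison.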

How the data were processed

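RNA was extracted from whole mucosa with 3 libraries in each of 4 groups, and poly(A) RNA was sequenced. The authors aligned reads with STAR to mm10, with annotation given as Ensembl in the methods and as Gencode in the reporting summary. The deposited values are expected counts (estimated reads per gene, not normalized), whereas the reporting summary names FeatureCounts on uniquely mapped reads after removal of duplicates, which does not give such values. The table held 53807 lines, of which 92 were spike-ins without counts. Expected counts were rounded (93.7% were whole within 0.005) and normalised by TMM. Genes were filtered with filterByExpr and tested with edgeR 4.0.16 (R 4.3.3) in quasi-likelihood fits of the 4 groups, or of tissue plus genotype for the effect over both tissues. P-values were adjusted by Benjamini-Hochberg over 16558 genes at a threshold of 0.1. The SE of an edgeR log2 fold change was computed as its absolute value divided by the square root of the F statistic of the test. The exact permutation tests were two-sided on log2(CPM + 0.5). DESeq2 1.42.0, limma-voom (limma 3.58.1), other scalings and filters, and fits without each library were the alternatives. The scripts were tested on simulated counts with known fold changes.

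Values in every library are given for the 2 genes of highest mean CPM per role, the 10 of smallest p for colon against ileum in control mice, the 3 of smallest p in each genotype comparison and near-identical pairs. Pathway genes are the 2 of smallest p per list, and 1 further gene of the rule is not reported here. The genes and lists were chosen with earlier results of these data known. The methods give 3 mice per group as biological replicates. Whether the ileal and colonic libraries came from the same mice is not stated. The fits and the permutation test over both tissues treated all libraries as independent. Their p-values and SEs rest on that. Sequences are from RefSeq.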

Additional observations from a re-analysis of the deposited data

How the results depend on the processing

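The number of the 46 genes called between tissues depended on the settings more than the direction of single genes did. In control mice, where the main count was 10, an adjusted p of 0.05 left 1, DESeq2 called 16, limma-voom 4, and leaving out single libraries gave 1 to 17 (3 without ileum control 1 or without colon control 3, 6 without ileum control 2 or without ileum KO 3, 1 without colon control 1 and 17 without colon KO 1). Without the 2 ileal libraries of few muscle transcripts it was 18. The share of all genes called moved too, from 35.9% in the main fit to 32.8% without colon KO 1 and 42.0% without those 2 libraries. In KO mice, where the main count was 7, an adjusted p of 0.05 left 1, leaving out single libraries gave 2 to 10 (2 without ileum KO 3 or without colon KO 2, 3 without ileum KO 2 and 4 without colon control 1), and leaving out the 2 muscle-poor libraries gave 12. Of all genes, 37.1% were called in KO mice in the main fit and 43.2% without the 2 muscle-poor libraries. Shares of all genes under the other settings of this section are not given here, so its counts do not single out these genes. The cause was not tested. For the 33 genes named with values in every library, no called value reversed. Of their values under alternatives, 73 in control and 41 in KO mice lost the call and 45 and 38 gained it.

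With the replicate number as a replicate block, the counts were 4 in control and 4 in KO mice. Deviations of same-numbered libraries had r from -0.694 to 0.404, and both extremes were ileal control against ileal KO libraries. Same-numbered ileal and colonic libraries had r of -0.053, 0.165 and -0.08 in control mice and 0.192, 0.051 and 0.251 in KO mice. These values cannot settle whether the numbers mark mice. No source says that they do, so they were not taken to pair the libraries.

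In the genotype comparisons the count was 0 under every alternative run. At an unadjusted p under 0.05 it was 1 over both tissues without colon KO 1 and 0 otherwise. Fits of only the libraries compared were not run over both tissues or for the difference between tissues, since those comparisons use all 12. The counts of genes lowest in colon control 2 and colon KO 1, and in ileum control 3 and ileum KO 1, were recomputed under other scalings chosen after seeing the data, and were 41, 41 and 40 of 46 and 17, 17 and 15 of 17 with RLE factors, upper-quartile factors and library size alone. With 3 libraries a group, SEs of up to 1.13 within a tissue and 1.58 for the difference between tissues limited what could be seen for the immunity-related GTPases.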
